A study of Homo sapiens with 15 samples.

Results

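The 10 genes described here encode the enzymes that hydroxylate and cross-link collagen, and the chaperone that accompanies it. They were taken by symbol from 17214 genes listed in both expression tables of HaCaT cells, an immortalised line of human keratinocytes. They are the prolyl hydroxylase subunits P4HA1, P4HA2 and P4HA3, the lysyl hydroxylases PLOD1, PLOD2 and PLOD3, the lysyl oxidases LOX, LOXL1 and LOXL2, and the collagen chaperone SERPINH1. RNA was sequenced from cells given silver sulfide nanoparticles doped with lithium (Li-doped Ag2S NPs) at 160 or 320 μg/mL for 24 h, from cells given the undoped Ag2S NPs at the same doses for 24 h, and from untreated control cells, with 3 libraries per group and 15 in all. All groups were the same line in the same medium with serum, and nothing in the labels says that the 3 libraries of a group were separate cultures, so the tests measure the spread between these libraries, which may be technical. Expression was given in FPKM, fragment counts scaled for transcript length and library size. The study asked which genes that bear on collagen and fibrosis in skin respond to these NPs. In bulk RNA, fewer cells of a type and less RNA per cell cannot be told apart.

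Collagen chains are modified in the endoplasmic reticulum before they fold. Prolyl hydroxylase, made of a catalytic alpha subunit (P4HA1, P4HA2 or P4HA3) and the subunit P4HB, makes the hydroxyproline that keeps the folded helix stable, and the PLOD enzymes make hydroxylysine. These hydroxylases need oxygen, iron, ascorbate and alpha-ketoglutarate. SERPINH1, also called HSP47, is a heat-inducible chaperone that binds folded procollagen on its way out, and the copper-dependent LOX enzymes act outside the cell, where they oxidise lysines so that chains of collagen and elastin become joined. In skin, keratinocytes make the collagens of the basement membrane while dermal fibroblasts make most of the fibrillar collagen.

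P4HA1 has a pair of mutually exclusive ninth exons of 71 bases each, and they are shown because P4HA1 turned out to be the gene with the largest fall and its transcripts differ by this exon. Transcript ENST00000307116 carries the exon at chr10:73044981-73045051 and ENST00000373008 the exon at chr10:73043887-73043957, both on the minus strand. Capitals mark the 28 bases that differ between them, and the other 43 (60.6%) are identical.
P4HA1 exon 9 of ENST00000307116: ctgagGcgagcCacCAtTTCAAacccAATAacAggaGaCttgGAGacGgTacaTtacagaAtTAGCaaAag
P4HA1 exon 9 of ENST00000373008: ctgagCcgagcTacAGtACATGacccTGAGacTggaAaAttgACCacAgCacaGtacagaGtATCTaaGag

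PLOD2 has an alternative exon of 63 bases, at chr3:146077862-146077924 on the minus strand, which is exon 14 of ENST00000282903 and is left out of ENST00000360060. The longer form is known for hydroxylating lysines in the ends of collagen chains, and the sequence is shown because this transcript was listed at 0 in all 15 libraries. The limit of that 0 is given below. Capitals mark the exon, with 24 bases of the neighbouring exon on each side.
PLOD2 alternative exon: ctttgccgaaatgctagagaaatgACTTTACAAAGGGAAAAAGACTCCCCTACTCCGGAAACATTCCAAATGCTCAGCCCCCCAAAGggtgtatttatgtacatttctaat

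RefSeq promoter windows on GRCh38.p14, which run from 250 bases before the gene start to 50 after it, were found for 8 of the 10 genes (11 windows, since LOX has 3 and SERPINH1 has 2). Both strands were searched for ACGTG, the core of the hypoxia response element, for its variant GCGTG, for CAGACA (part of a Smad binding element), TATAAA (a box of the core promoter), the heat shock element (inverted repeats of GAA with gaps of 2 bases) and the endoplasmic reticulum stress element (CCAAT, and after a gap of 9 bases the block CCACG). No 2 motifs overlap in the windows shown. Of 35116 promoters, 21.4% hold ACGTG, 36.5% GCGTG, 16.9% CAGACA, 0.49% the heat shock element, 0.08% the endoplasmic reticulum stress element and 11.5% TATAAA. The windows of P4HA1, LOXL1 and SERPINH1, on which much of the results turns, are shown with matches in capitals.
P4HA1 promoter, chr10:73096817-73097116 (minus strand): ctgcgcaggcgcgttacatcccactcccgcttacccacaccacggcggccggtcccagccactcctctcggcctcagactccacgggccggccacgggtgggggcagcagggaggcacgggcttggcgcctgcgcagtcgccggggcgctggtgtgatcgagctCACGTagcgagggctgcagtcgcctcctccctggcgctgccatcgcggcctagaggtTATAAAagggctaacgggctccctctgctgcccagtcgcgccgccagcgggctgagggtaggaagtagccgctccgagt
LOXL1 promoter, chr15:73926212-73926511 (plus strand): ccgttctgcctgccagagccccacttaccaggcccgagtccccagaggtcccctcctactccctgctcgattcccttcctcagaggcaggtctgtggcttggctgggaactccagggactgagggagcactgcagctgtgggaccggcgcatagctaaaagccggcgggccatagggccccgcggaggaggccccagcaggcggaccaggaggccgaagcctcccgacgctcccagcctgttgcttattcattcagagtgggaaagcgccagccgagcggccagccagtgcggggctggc
SERPINH1 promoter, chr11:75562003-75562302 (plus strand): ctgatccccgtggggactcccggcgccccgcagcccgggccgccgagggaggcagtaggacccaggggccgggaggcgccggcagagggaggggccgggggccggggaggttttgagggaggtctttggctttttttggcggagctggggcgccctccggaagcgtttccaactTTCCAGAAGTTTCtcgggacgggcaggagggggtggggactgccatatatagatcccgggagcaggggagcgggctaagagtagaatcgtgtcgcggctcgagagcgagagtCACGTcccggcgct
The P4HA1 window holds ACGTG on the opposite strand 86 bases before the start, and TATAAA 29 bases before it. SERPINH1 has a pair of windows, and the one shown holds the heat shock element 76 bases before the start and ACGTG on the opposite strand 36 bases after it. The other SERPINH1 window, chr11:75562223-75562522, is not shown and holds no heat shock element, but it holds ACGTG on the opposite strand at -184 and GCGTG at -133 and -129, counted in bases from its own start. No searched motif was found in the LOXL1 window. A match describes the letters and does not mark a bound site.

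Summed FPKM per library lay between 582438 and 698558, and the highest sum was that of Li-doped Ag2S 320 replicate 15. All 10 of 10 keratinocyte markers had a mean of at least 1 FPKM in every group, a cut far below their levels, so it does not show that the levels held. KRT5 averaged 4128 FPKM in control, 3195 with Li-doped Ag2S NPs at 160 μg/mL and 9662 with Li-doped Ag2S NPs at 320 μg/mL. DSG3 averaged 163, 117 and 190 FPKM in the same order. All other markers of that list had higher means with Li-doped Ag2S NPs at 160 μg/mL than in control. Among them KRT14 averaged 5167 against 2635 FPKM and DSP 186 against 178 FPKM. Of 9 fibroblast markers listed, COL1A2 and COL3A1 stayed under 0.1 FPKM in all libraries, and PDGFRA, PDGFRB and FAP under 1 FPKM. In control FBLN1 averaged 37.1, DCN 7.08, LUM 5.19 and TWIST2 2.11 FPKM. With Li-doped Ag2S NPs at 160 μg/mL these averaged 14.8, 0.07, 0.04 and 2.90 FPKM in the same order. The summed level of the list was 14.7 to 21.3 FPKM with Li-doped Ag2S NPs and 37.4 to 42.9 with Ag2S NPs at 160 μg/mL. It was 29.4 to 35.3 with Li-doped Ag2S NPs and 28.3 to 29.7 with Ag2S NPs at 320 μg/mL, and 48.5 to 53.8 in control. The keratinocyte list summed to 11703 to 14099 FPKM with Li-doped Ag2S NPs at 160 μg/mL and 25177 to 29892 FPKM at 320 μg/mL. In control it summed to 9521 to 9871 FPKM. A leukocyte list summed to 25.8 to 29.4 FPKM with Li-doped Ag2S NPs at 160 μg/mL, against 11.1 to 12.1 FPKM in control. Within the leukocyte list CD68, a lysosomal protein, averaged 26.6 FPKM in that group and 10.3 FPKM in control, while CD14 averaged 1.09 and 1.23 FPKM and CD3E 0 and 0.20 FPKM in the same order. An endothelial list summed to 0.07 to 0.81 FPKM over the 4 treated groups, against 3.36 to 4.01 FPKM in control, where CDH5 alone averaged 3.11 FPKM. Across all genes tested, the median difference from control on the log2 scale was below 0. It was -0.19 with Li-doped and -0.14 with undoped Ag2S NPs at the lower dose, and -0.26 with Li-doped and -0.18 with undoped Ag2S NPs at the higher. Scaling by median ratio brought these medians to within 0.01 of 0, and the scaled values are given beside a result of the 10 genes where they change a call, and scaled counts beside the counts of the other lists. The part of the marker lists in the results was not tested.

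In GENCODE 29 on GRCh38, P4HA1 lies at chr10:73007217-73096974 on the minus strand, P4HA2 at chr5:132191838-132295315 (minus), PLOD1 at chr1:11934205-11975538 (plus), PLOD2 at chr3:146069440-146163653 (minus) and PLOD3 at chr7:101205977-101218420 (minus). LOX lies at chr5:122063195-122078360 (minus), LOXL1 at chr15:73925989-73952137 (plus), SERPINH1 at chr11:75562056-75572783 (plus), P4HA3 at chr11:74235801-74311657 (minus) and LOXL2 at chr8:23297189-23425328 (minus). The library kit is not described as marking strand, so reads of an overlapping antisense gene cannot be told apart. LOXL1 shares 335 of its 3637 exonic bases with LOXL1-AS1, P4HA2 shares 548 of 8502 with P4HA2-AS1, and PLOD3 shares 429 of 5671 with ZNHIT1, which was listed at 50.2 to 88.5 FPKM. LOX shares 138 of 5547 with SRFBP1 (2.11 to 5.55 FPKM), and P4HA3 shares 166 of 4009 with PPME1 (33.2 to 45.9 FPKM). LOXL2 shares 120 of 5707 with ENTPD4 (8.68 to 19.0 FPKM), which lies on the same strand. The part of such reads in the low values of LOX and P4HA3 was not tested.

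Against control, LOXL1, P4HA2 and PLOD1 rose in all 4 treated groups, and LOXL1 rose most. LOXL2 rose in 3 of them, PLOD3 rose with the Li-doped NPs, and PLOD2 fell with the Li-doped NPs, by a gene value that rests mostly on a fragment described below. P4HA1 fell at the higher Li-doped dose and, by less, at the lower dose of Ag2S NPs, and SERPINH1 fell at the lower Li-doped dose. Of the 10 genes, 8 had the mean of at least 1 FPKM that the test required, and LOX and P4HA3 did not. With Li-doped Ag2S NPs at 160 μg/mL, 5 rose and 2 fell, where 22.6% of all 11987 genes tested rose and 40.6% fell. With Ag2S NPs at 160 μg/mL, 4 rose and 1 fell, beside 11.5% and 23.8% of all genes. With Li-doped Ag2S NPs at 320 μg/mL, 4 rose and 2 fell, where 17% of all 11903 genes tested rose and 44.6% fell. With Ag2S NPs at 320 μg/mL, 4 rose and 0 fell, beside 16.2% and 36.2%. At an unadjusted p under 0.05, limma put 1 gene, SERPINH1, below control there (-0.16, adjusted p = 0.0653). No test of the list was made. The median log2 fold change of the 8 genes was 0.32, 0.29, 0.22 and 0.24 in the same order, where the medians over all genes were those given above. After scaling, 6 of the 8 rose in each of the 4 groups, where 30.5%, 17.2%, 28.3% and 24.1% of all genes rose in the same order. PLOD2 and SERPINH1 fell after scaling with Li-doped Ag2S NPs at 160 μg/mL, where 30.1% of all genes fell, and P4HA1 with Li-doped Ag2S NPs at 320 μg/mL, where 26% fell. Leaving out Li-doped Ag2S 320 replicate 15, which shares the estimate of spread, raised the number of the 8 genes called with Ag2S NPs at 320 μg/mL to 7, with P4HA1, PLOD3 and SERPINH1 added. All these comparisons at a dose share the same 3 control libraries.

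**Figure D1:**
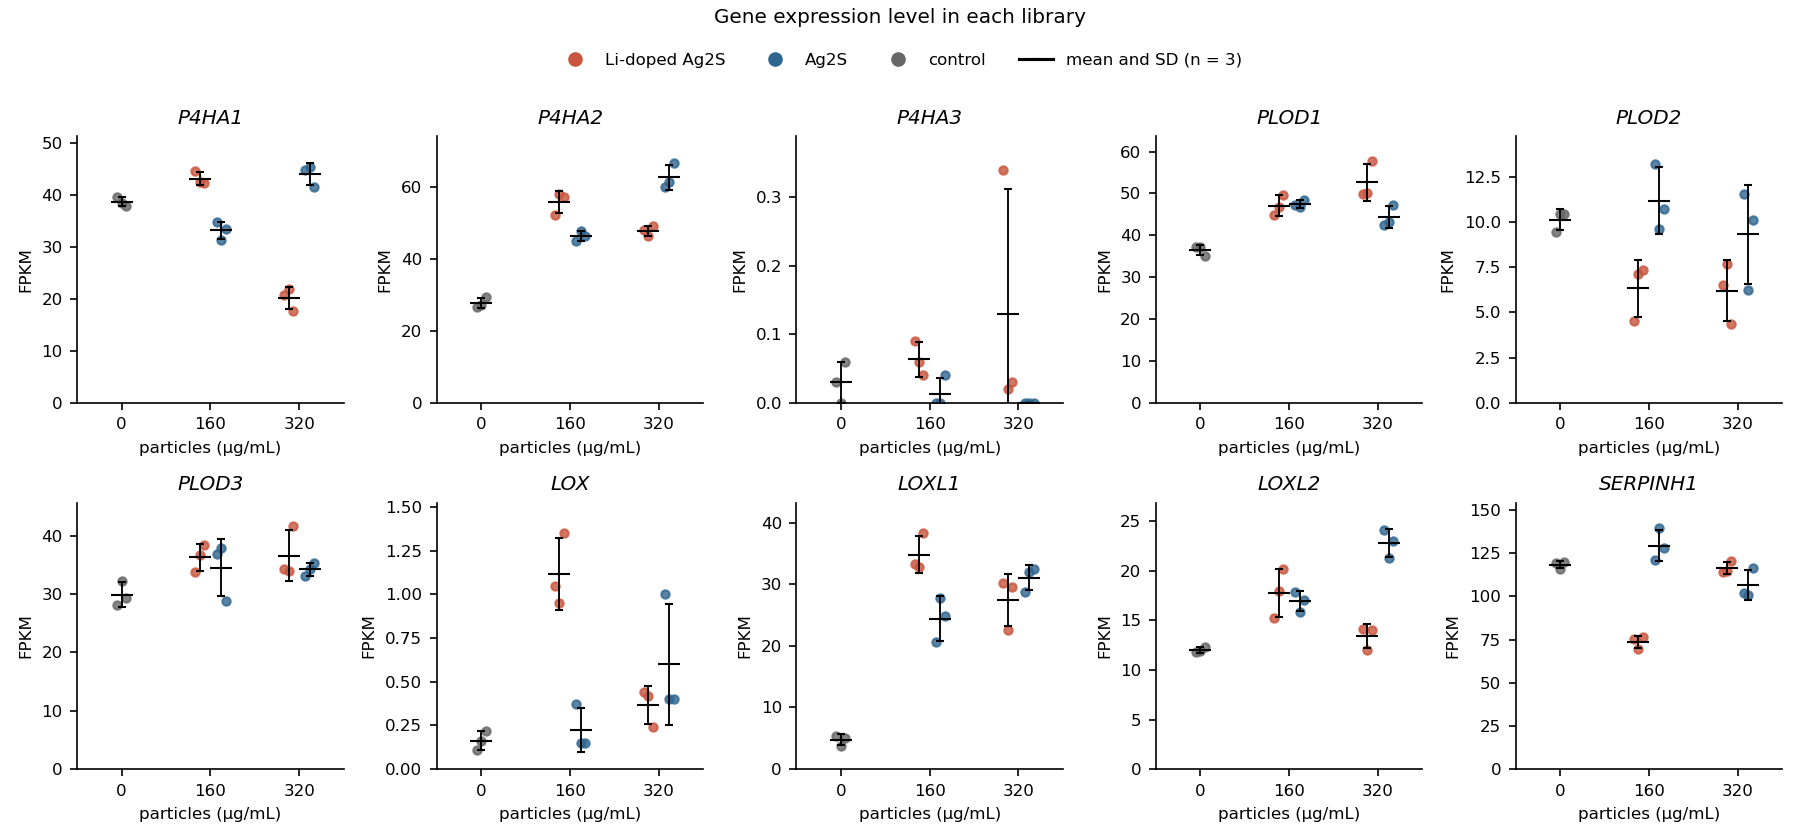
Expression level (FPKM, linear axis from 0) of the 10 genes against particle dose in μg/mL, with 1 point per library (red Li-doped Ag2S, blue Ag2S, grey control), and the mean and SD of 3 libraries in black. LOXL1 stands at 20.6 to 38.3 FPKM in the 12 treated libraries and at 3.74 to 5.44 in control, and P4HA1 is lowest with Li-doped Ag2S NPs at 320 μg/mL.

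**Figure D2:**
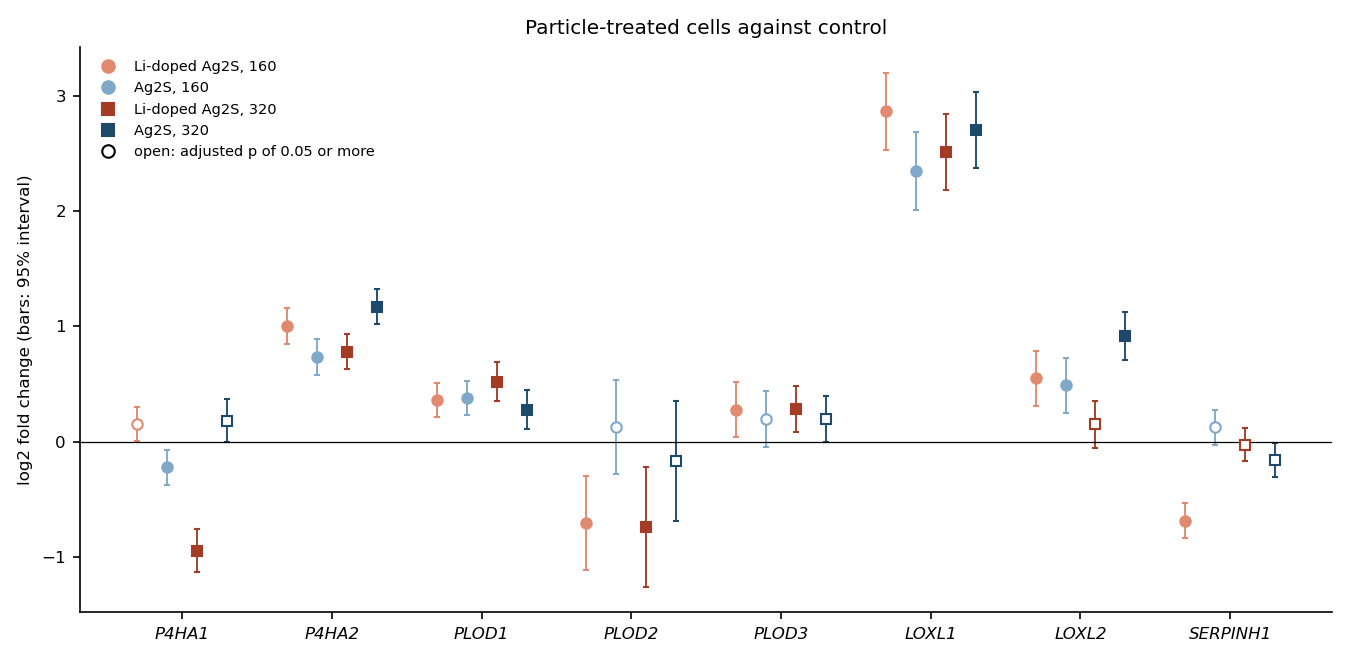
Log2 fold change against control of the 8 genes tested, for Li-doped and undoped Ag2S NPs at 160 μg/mL (circles) and 320 μg/mL (squares), with 95% intervals. Filled symbols have an adjusted p under 0.05 by limma, and the values of LOXL1 run between 2.35 and 2.86.

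P4HA1, the more abundant alpha subunit of the pair in control cells, was lowered by Li-doped Ag2S NPs at 320 μg/mL. In that group it had 20.7, 21.9 and 17.7 FPKM, against 39.6, 38.5 and 37.9 FPKM in control. The groups did not overlap, and the treated mean was 0.52 times the control mean (log2 fold change -0.94, SE 0.09, limma adjusted p = 4.3e-06). With Ag2S NPs at 320 μg/mL the libraries had 44.9, 45.4 and 41.6 FPKM, all above control, but the difference of 0.18 (SE 0.09) missed the threshold (adjusted p = 0.0889), and it was 0.37 (adjusted p = 0.00131) after scaling. At 160 μg/mL, P4HA1 had 44.5, 42.5 and 42.3 FPKM with Li-doped Ag2S NPs, 34.7, 31.4 and 33.4 FPKM with Ag2S NPs, and the control values above. The Li-doped libraries were all above control and the undoped libraries all below it. Against control these were log2 differences of 0.16 (SE 0.07, adjusted p = 0.0621) for Li-doped and -0.22 (SE 0.07, adjusted p = 0.0266) for undoped Ag2S NPs. The Li-doped difference passed the threshold after scaling (0.34, adjusted p = 0.00159). The fall with Ag2S NPs at 160 μg/mL became -0.07 (adjusted p = 0.455) after scaling, and it also lost its call without any 1 of the 3 control replicates or without Ag2S 160 replicate 5, with values from -0.26 to -0.18 over all libraries left out.

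P4HA1 therefore stood on opposite sides of the undoped NPs at the 2 doses: Li-doped Ag2S NPs gave a level higher by 0.38 (SE 0.07, limma adjusted p = 0.000821) at 160 μg/mL and lower by 1.13 on the log2 scale (fold change -1.13, SE 0.09, adjusted p = 1.04e-05) at 320 μg/mL. Between doses it was higher at 320 than at 160 μg/mL of Ag2S NPs by 0.41 (SE 0.08, adjusted p = 0.00385) and lower at 320 than at 160 μg/mL of Li-doped Ag2S NPs, with a log2 fold change of -1.10 (SE 0.08, adjusted p = 4.22e-08). The mean at 320 μg/mL of Li-doped Ag2S NPs was 0.47 times that at 160 μg/mL.

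P4HA2, the other widely expressed alpha subunit, rose in every treated group. The lower dose gave P4HA2 levels of 52.3, 58.1 and 57.0 FPKM with Li-doped Ag2S NPs, 44.9, 47.6 and 46.2 FPKM with Ag2S NPs, and 26.7, 27.2 and 29.4 FPKM in control. The higher dose gave 48.0, 46.3 and 49.1 FPKM with Li-doped Ag2S NPs and 60.0, 61.3 and 66.5 FPKM with Ag2S NPs. No treated library came within the control range. The highest group, Ag2S NPs at 320 μg/mL, averaged 62.6 ± 3.41 FPKM against 27.8 ± 1.43 FPKM in control (SD, n = 3 each), a ratio of 2.25. The log2 fold changes at 160 μg/mL were 1.00 (SE 0.07, limma adjusted p = 5.63e-07) with Li-doped and 0.73 (SE 0.07, adjusted p = 5.04e-05) with undoped Ag2S NPs, and at 320 μg/mL they were 0.78 (SE 0.07, adjusted p = 3.6e-06) and 1.17 (SE 0.07, adjusted p = 1.64e-07).

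Like P4HA1, P4HA2 was higher with Li-doped than with undoped Ag2S NPs at 160 μg/mL (0.27, SE 0.07, limma adjusted p = 0.00904) and lower at 320 μg/mL (-0.39, SE 0.07, adjusted p = 0.00272). The dose of Ag2S NPs raised it (0.44, SE 0.07, adjusted p = 0.000749). The higher dose of Li-doped Ag2S NPs gave a lower level (-0.22, SE 0.07, adjusted p = 0.0159), a call that ended after scaling (-0.15, adjusted p = 0.159) and without Li-doped Ag2S 160 replicate 11 or Li-doped Ag2S 320 replicate 14 (range over libraries left out -0.27 to -0.19). P4HA3, the alpha subunit with the lowest level, was at or below 0.34 FPKM in all 15 libraries and was listed at 0 in the 3 libraries with Ag2S NPs at 320 μg/mL, far below the other alpha subunits.

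PLOD1, a lysyl hydroxylase of the helical part of the chain, rose by a small and steady amount. Its levels at 160 μg/mL were 44.8, 46.7 and 49.7 FPKM with Li-doped Ag2S NPs, 47.3, 46.7 and 48.4 FPKM with Ag2S NPs, and 37.3, 37.1 and 35.2 FPKM in control. Its levels at 320 μg/mL were 49.9, 50.2 and 57.8 FPKM with Li-doped Ag2S NPs and 42.4, 43.2 and 47.3 FPKM with Ag2S NPs. All 12 treated libraries were above all 3 control libraries. By limma the log2 fold changes were 0.36 (adjusted p = 0.000645) and 0.38 (adjusted p = 0.00192) at 160 μg/mL and 0.52 (adjusted p = 0.000169) and 0.28 (adjusted p = 0.011) at 320 μg/mL, Li-doped before undoped, with SEs of 0.07 to 0.08. The 2 kinds of particle did not differ at 160 μg/mL beyond an interval of -0.16 to 0.13. At 320 μg/mL PLOD1 was higher with Li-doped Ag2S NPs by 0.24 (SE 0.08, adjusted p = 0.0375), which ended without any 1 of 6 libraries: the 3 controls, Ag2S 320 replicates 7 and 8, and Li-doped Ag2S 320 replicate 15 (range 0.18 to 0.29).

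PLOD3, which hydroxylates lysines and also adds sugars to them, moved less. The lower dose gave 33.8, 36.6 and 38.4 FPKM with Li-doped Ag2S NPs, 36.8, 37.9 and 28.9 FPKM with Ag2S NPs, and 28.1, 32.3 and 29.3 FPKM in control. The higher dose gave 34.2, 34.0 and 41.6 FPKM with Li-doped Ag2S NPs and 33.1, 34.3 and 35.3 FPKM with Ag2S NPs. Of the treated libraries, Ag2S 160 replicate 6 alone fell within the control range. The rise with Li-doped Ag2S NPs was 0.28 (SE 0.11, limma adjusted p = 0.0435) at 160 μg/mL and 0.29 (SE 0.09, adjusted p = 0.0175) at 320 μg/mL. The call at 160 μg/mL was lost without control replicate 1 or 3 or Li-doped Ag2S 160 replicate 11 or 12 (0.23 to 0.34), and the call at 320 μg/mL without control replicate 1 or 3 (0.19 to 0.34). With Ag2S NPs the differences of 0.20 and 0.20 missed the threshold at 160 μg/mL (adjusted p = 0.173) and at 320 μg/mL (adjusted p = 0.0911), and both passed it after scaling (0.35, adjusted p = 0.0294, and 0.38, adjusted p = 0.0198). Li-doped and undoped Ag2S NPs differed by 0.08 (95% interval -0.16 to 0.32) and 0.09 (-0.11 to 0.29) at 160 and 320 μg/mL.

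By gene value, PLOD2, the lysyl hydroxylase of the chain ends, went the other way from PLOD1 and PLOD3 with the Li-doped NPs. That value rests mostly on ENST00000469350, a model of 723 bases that ends 33320 bases short of the gene's far end. The full-length transcript was below the filter and was not tested, and its means with Li-doped NPs lay close to control, as given below. PLOD2 at 160 μg/mL had 4.53, 7.12 and 7.34 FPKM with Li-doped Ag2S NPs, 13.2, 9.61 and 10.8 FPKM with Ag2S NPs, and 9.48, 10.5 and 10.5 FPKM in control. PLOD2 at 320 μg/mL had 6.51, 7.70 and 4.37 FPKM with Li-doped Ag2S NPs and 11.6, 6.24 and 10.1 FPKM with Ag2S NPs. All 6 Li-doped libraries were below control, whereas the undoped libraries overlapped it. The fall with Li-doped Ag2S NPs was -0.70 (SE 0.18, limma adjusted p = 0.00646) at 160 μg/mL and -0.74 (SE 0.24, adjusted p = 0.018) at 320 μg/mL. The call at 320 μg/mL ended after scaling (-0.48, adjusted p = 0.0861) and without control replicate 2 or 3 or Li-doped Ag2S 320 replicate 15 (-0.91 to -0.51). Against the undoped NPs PLOD2 was lower at 160 μg/mL (-0.83, SE 0.18, adjusted p = 0.00327), and at 320 μg/mL the difference was -0.57 (95% interval -1.09 to -0.06, adjusted p = 0.094).

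LOXL1, the lysyl oxidase best known for elastic fibres, showed the largest change of the 10 genes. LOXL1 at 160 μg/mL had 33.2, 32.9 and 38.3 FPKM with Li-doped Ag2S NPs, 20.6, 27.8 and 24.9 FPKM with Ag2S NPs, and 5.44, 3.74 and 5.05 FPKM in control. LOXL1 at 320 μg/mL had 30.1, 22.6 and 29.6 FPKM with Li-doped Ag2S NPs and 28.7, 32.0 and 32.5 FPKM with Ag2S NPs. The lowest treated library was at 20.6 FPKM, far above the highest control library at 5.44 FPKM. The ratio of means to control was 7.34 with Li-doped and 5.15 with undoped Ag2S NPs at the lower dose, and 5.78 and 6.55 in that order at the higher. At 160 μg/mL the log2 fold changes were 2.86 (SE 0.15, limma adjusted p = 5.65e-08) and 2.35 (SE 0.15, adjusted p = 2.82e-06) in that order. The Li-doped NPs gave the higher level at 160 μg/mL (0.52, SE 0.15, adjusted p = 0.0154), a call that ended without Ag2S 160 replicate 4 or Li-doped Ag2S 160 replicate 12 (0.40 to 0.61). At 320 μg/mL the 2 kinds differed by -0.19 (95% interval -0.52 to 0.14, adjusted p = 0.368) and their libraries overlapped.

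LOXL2, a lysyl oxidase that acts on basement membrane collagen, rose with both doses of Ag2S NPs and with the lower dose of Li-doped Ag2S NPs. LOXL2 at 160 μg/mL had 15.2, 18.0 and 20.2 FPKM with Li-doped Ag2S NPs, 17.9, 15.9 and 17.1 FPKM with Ag2S NPs, and 11.80, 11.94 and 12.37 FPKM in control. LOXL2 at 320 μg/mL had 14.17, 12.04 and 14.04 FPKM with Li-doped Ag2S NPs and 24.2, 21.3 and 23.0 FPKM with Ag2S NPs. The Li-doped libraries at 320 μg/mL overlapped control and the other treated groups did not. By limma the log2 fold changes were 0.55 (SE 0.11, adjusted p = 0.00109) and 0.49 (SE 0.11, adjusted p = 0.00645) at 160 μg/mL, and 0.15 (SE 0.09, adjusted p = 0.179) and 0.92 (SE 0.09, adjusted p = 1.32e-05) at 320 μg/mL, Li-doped before undoped. The value of 0.15 became 0.41 (adjusted p = 0.00606) after scaling.
At 320 μg/mL LOXL2 was lower with Li-doped than with undoped Ag2S NPs (-0.76, SE 0.09, adjusted p = 0.000305), and at 160 μg/mL the difference was 0.06 (95% interval -0.18 to 0.30). From 160 to 320 μg/mL it was lower with Li-doped Ag2S NPs (-0.40, SE 0.11, adjusted p = 0.00655) and higher with Ag2S NPs (0.43, SE 0.11, adjusted p = 0.0152). The call for Ag2S NPs was lost without Ag2S 160 replicate 5 or Ag2S 320 replicate 7 or 9 (0.38 to 0.48).

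LOX, the founding enzyme of the family, was near the floor. LOX at 160 μg/mL had 1.05, 0.95 and 1.35 FPKM with Li-doped Ag2S NPs, 0.37, 0.15 and 0.15 FPKM with Ag2S NPs, and 0.11, 0.16 and 0.22 FPKM in control. LOX at 320 μg/mL had 0.44, 0.42 and 0.24 FPKM with Li-doped Ag2S NPs and 1.00, 0.40 and 0.40 FPKM with Ag2S NPs. The Li-doped libraries at 160 μg/mL stood above every library of the other groups except Ag2S 320 replicate 7, which was at 1.00. In a limma fit without the filter on low values, where 18.7% of 17740 genes rose, the difference from control for Li-doped Ag2S NPs at 160 μg/mL was 2.22 (SE 0.32, adjusted p = 0.000404). In the same fit, where 16.9% of genes were higher with Li-doped than with undoped Ag2S NPs, the difference from the undoped NPs was 1.97 (SE 0.32, adjusted p = 0.00129). Without the filter at 320 μg/mL, where 12.5% rose with Ag2S NPs, it was 1.32 (SE 0.37, adjusted p = 0.0207) for Ag2S NPs against control and 0.82 (SE 0.37, adjusted p = 0.106) for Li-doped Ag2S NPs. These fold changes are on the log2(FPKM + 0.1) scale and understate changes at such levels.

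SERPINH1 was the most abundant of the 10 transcripts in every group, and it fell with Li-doped Ag2S NPs at 160 μg/mL. At that dose it had 75.1, 69.6 and 76.4 FPKM with Li-doped Ag2S NPs, 121, 139 and 128 FPKM with Ag2S NPs, and 119, 116 and 120 FPKM in control. SERPINH1 at 320 μg/mL had 114, 115 and 121 FPKM with Li-doped Ag2S NPs and 102, 101 and 116 FPKM with Ag2S NPs. The Li-doped libraries at 160 μg/mL lay below all others. Their mean was 0.62 times control (log2 fold change -0.68, SE 0.07, limma adjusted p = 7.9e-06) and 0.57 times the undoped NPs (-0.81, SE 0.07, adjusted p = 3.97e-06). The other 3 differences from control were 0.13 (adjusted p = 0.168) with Ag2S NPs at 160 μg/mL, -0.02 (adjusted p = 0.779) with Li-doped Ag2S NPs at 320 μg/mL and -0.16 (adjusted p = 0.0653) with Ag2S NPs at 320 μg/mL. After scaling the difference for Li-doped Ag2S NPs at 320 μg/mL turned to 0.24 (adjusted p = 0.0315), and that for Ag2S NPs at 160 μg/mL was 0.27 (adjusted p = 0.0265).
Between doses SERPINH1 was higher at 320 than at 160 μg/mL of Li-doped Ag2S NPs (0.66, SE 0.07, adjusted p = 2.8e-06) and lower at 320 than at 160 μg/mL of Ag2S NPs (-0.28, SE 0.07, adjusted p = 0.0162). The second of these ended after scaling (-0.24, adjusted p = 0.0955) and without Ag2S 160 replicate 5 or Ag2S 320 replicate 7 or 8 (-0.35 to -0.23).

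The 4 comparisons within treated cells can be counted over the 8 genes. Li-doped against undoped Ag2S NPs gave 3 higher and 2 lower at the lower dose, where 21.4% of all genes tested were higher and 29% lower. At the higher dose it gave 1 higher and 3 lower, where 10.1% and 16.1% were. The higher against the lower dose gave 1 higher and 3 lower with Li-doped Ag2S NPs, where 19.6% of 11952 genes were higher and 23.3% lower, and 3 higher and 1 lower with Ag2S NPs, where 4.84% and 7.68% were. The difference between the dose effects of the 2 kinds of particle, tested as an interaction over 15 libraries, was called for 5 of the 8 genes, 1 positive and 4 negative, where it was positive for 20.2% and negative for 19.5% of all genes. It was negative for P4HA1 (-1.51, SE 0.11, limma adjusted p = 8.07e-08), P4HA2 (-0.66, SE 0.10, adjusted p = 7.49e-05), LOXL1 (-0.71, SE 0.21, adjusted p = 0.014) and LOXL2 (-0.82, SE 0.15, adjusted p = 0.000443), and positive for SERPINH1 (0.95, SE 0.10, adjusted p = 3.18e-06). For PLOD1, PLOD2 and PLOD3 the interaction was 0.26 (95% interval 0.04 to 0.48, adjusted p = 0.0596), 0.26 (-0.47 to 0.99) and 0.01 (-0.31 to 0.33). In the fit without the filter, where 15.2% of 17214 genes had a negative one, LOX had an interaction of -2.48 (SE 0.51, adjusted p = 0.00231). The difference of Li-doped minus undoped NPs was thus lower at the higher dose for P4HA1, P4HA2, LOXL1 and LOXL2, and higher at it for SERPINH1.

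**Figure D3:**
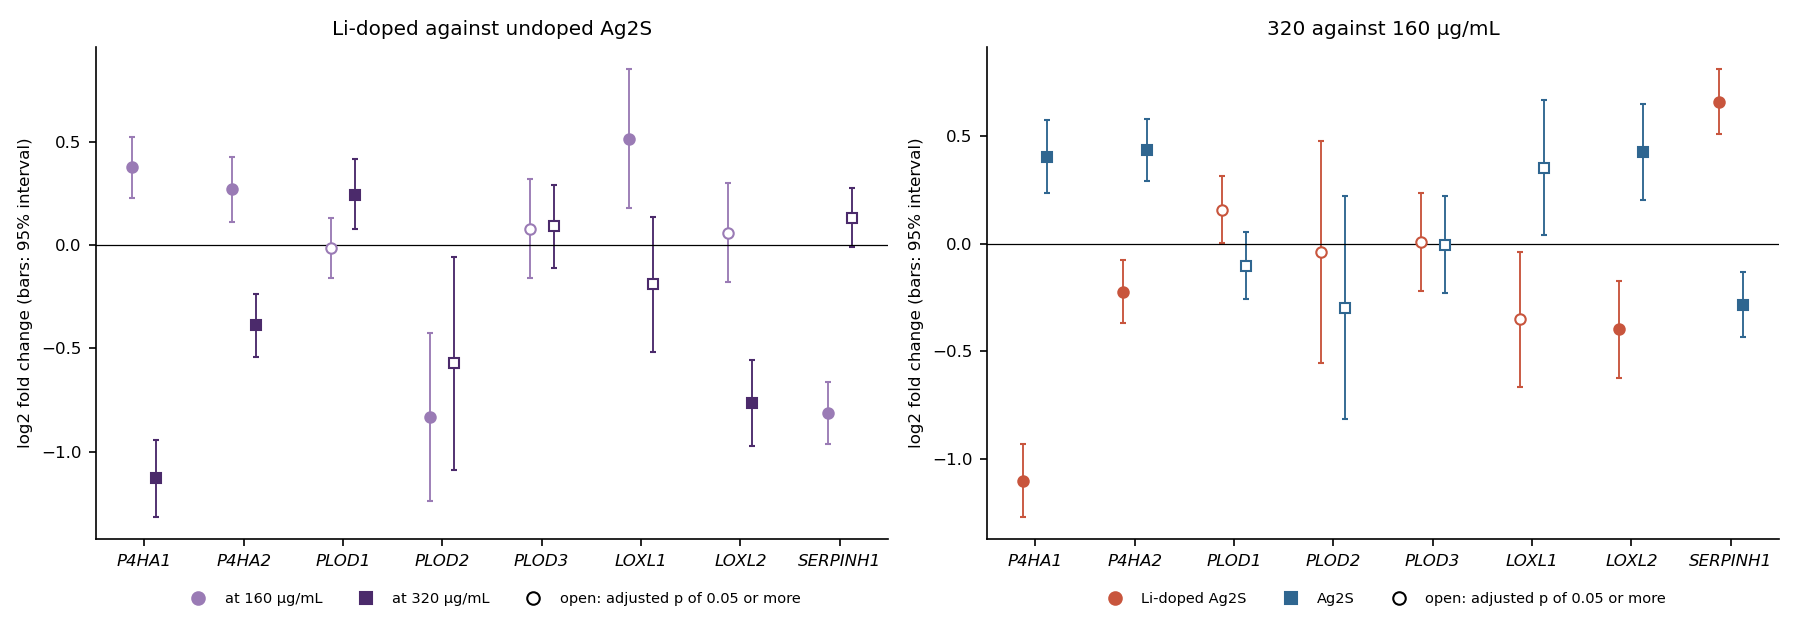
Log2 fold changes with 95% intervals of the 8 genes, on the left for Li-doped against undoped Ag2S NPs at 160 μg/mL (circles) and 320 μg/mL (squares), and on the right for 320 against 160 μg/mL of Li-doped Ag2S (red circles) and Ag2S (blue squares). Filled symbols have an adjusted p under 0.05 by limma, and P4HA1 shows -1.10 between doses of Li-doped Ag2S NPs and 0.41 between doses of Ag2S NPs.

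FPKM is per length, so the levels of different genes can be ordered within a group. In control the order was SERPINH1 (mean 118 FPKM), P4HA1 (38.7), PLOD1 (36.5), PLOD3 (29.9), P4HA2 (27.8), LOXL2 (12.04), PLOD2 (10.1), LOXL1 (4.74), LOX (0.16) and P4HA3 (0.03), and only PLOD3 and P4HA2 overlapped as neighbours. P4HA2 passed P4HA1 in each treated group. The P4HA2 and P4HA1 means were 55.8 and 43.1 FPKM with Li-doped Ag2S NPs at 160 μg/mL, 46.2 and 33.2 with Ag2S NPs at 160 μg/mL, 47.8 and 20.1 with Li-doped Ag2S NPs at 320 μg/mL, 62.6 and 44.0 with Ag2S NPs at 320 μg/mL, and 27.8 and 38.7 in control. By gene value, LOXL1 moved from below LOXL2 and PLOD2 in control to above both in each treated group. With Li-doped Ag2S NPs at 160 μg/mL, LOXL1 (34.8 FPKM) overlapped PLOD3 (36.2). At 320 μg/mL of these NPs, LOXL1 (27.4) stood above P4HA1 (20.1) without overlap. These places rest on a LOXL1 value that includes a short retained-intron model, and on a PLOD2 value that is mostly a fragment, both described below. Libraries of the full-length LOXL1 transcript alone lay below those of LOXL2 with Ag2S NPs at both doses. With Li-doped Ag2S NPs they overlapped LOXL2 at 160 μg/mL and lay above it at 320 μg/mL.

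Among transcripts, where far fewer were called (27.5% and 5.66% of 32692 with Li-doped and undoped Ag2S NPs against control at 160 μg/mL, and 22.8% and 17.5% of 32492 at 320 μg/mL), the P4HA1 pair moved together. With Li-doped Ag2S NPs at 320 μg/mL, ENST00000307116 had 11.44, 11.02 and 9.29 FPKM, against 19.6, 20.4 and 18.2 FPKM in control (log2 fold change -0.87, limma adjusted p = 0.00073). In that group ENST00000373008, which carries the other ninth exon shown above, had 7.99, 9.91 and 8.09 FPKM, against 18.1, 16.4 and 17.7 FPKM in control (-1.002, adjusted p = 0.000608). Both forms of the subunit fell, and their shares of the gene were 52.6 ± 2.5% and 43.1 ± 3.93% with Li-doped Ag2S NPs, against 50.2 ± 2.6% and 44.97 ± 2.15% in control (SD, n = 3 each). Against the undoped NPs at 320 μg/mL, where 3.91% of transcripts were called, the differences were -0.97 (adjusted p = 0.00261) and -1.29 (adjusted p = 0.00108) in the same order. At 160 μg/mL only ENST00000373008 passed the test between Li-doped and undoped Ag2S NPs (0.49, adjusted p = 0.0306), where 17.5% of transcripts were called, and ENST00000307116 was at 0.25 (adjusted p = 0.159). Whether the 2 transcripts differ in that change was not tested.

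P4HA2 had 3 main transcripts, which differ in their leading exons and in a pair of exons of 60 and 66 bases used in place of each other. All 3 rose with Ag2S NPs at 320 μg/mL, ENST00000360568 by 1.29 (limma adjusted p = 0.00281), ENST00000379086 by 1.17 (adjusted p = 0.00721) and ENST00000166534 by 1.25 (adjusted p = 0.00051). The last of these carries the 66-base exon and held 19.6% to 21.8% of the gene as group means, with shares per library that overlapped between groups. All 3 also rose with Li-doped Ag2S NPs at 160 μg/mL. At 320 μg/mL of these NPs, ENST00000379086 missed the threshold (0.66, limma adjusted p = 0.0583). With Ag2S NPs at 160 μg/mL, ENST00000360568 (0.72, adjusted p = 0.0827) and ENST00000379086 (0.80, adjusted p = 0.0842) missed it.

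LOXL1 was split between its full-length transcript and short models. The full-length ENST00000261921, of 2351 bases and 7 exons, had 16.5, 15.2 and 17.8 FPKM with Li-doped Ag2S NPs and 11.6, 10.9 and 13.1 FPKM with Ag2S NPs at 160 μg/mL, and 3.15, 2.81 and 3.25 FPKM in control. The higher dose gave it 15.7, 14.8 and 18.3 FPKM with Li-doped and 19.1, 19.2 and 19.8 FPKM with undoped Ag2S NPs. It rose in all 4 groups, by 2.39 and 1.91 at 160 μg/mL and by 2.37 and 2.62 at 320 μg/mL for Li-doped and undoped Ag2S NPs. The retained-intron model ENST00000566530, of 557 bases, took 47.3 ± 6.02% of the gene with Li-doped and 44.6 ± 4.30% with undoped Ag2S NPs at 160 μg/mL, and 17.0 ± 16.1% in control, where 1 library was at 0. Because a short model weighs more per read in FPKM, the gene value of LOXL1 depends on how fragments were shared among these models, and the gene's log2 fold change against control was above that of the full-length transcript in all 4 groups.

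PLOD2 rests mostly on a fragment. The model ENST00000469350, of 723 bases and 7 exons, ends 33320 bases short of the gene's far end and took 85.3% to 90.6% of the gene as group means. The full-length ENST00000360060 had 0.43 to 0.87 FPKM in all 15 libraries, and ENST00000282903, which holds the exon shown above, was listed at 0 in every one. That 0 depends on how fragments were shared among these models, so it does not show that the form was absent. The fragment fell with Li-doped Ag2S NPs at 160 μg/mL (-0.73, limma adjusted p = 0.0487), and its value at 320 μg/mL was -0.82 (adjusted p = 0.0574). The full-length transcript averaged 0.54 FPKM with Li-doped and 0.69 FPKM with undoped Ag2S NPs at 160 μg/mL, 0.64 and 0.58 FPKM at 320 μg/mL, and 0.56 FPKM in control. SERPINH1 was simpler, since ENST00000358171 took 87.9% to 91.9% of the gene, and it fell with Li-doped Ag2S NPs at 160 μg/mL (-0.73, adjusted p = 0.00013) and by less with Ag2S NPs at 320 μg/mL (-0.22, adjusted p = 0.0411). Transcripts were not scaled. The SERPINH1 gene value with Ag2S NPs at 320 μg/mL missed the threshold (-0.16, adjusted p = 0.0653) and was 0.025 (adjusted p = 0.822) after scaling.

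**Figure D4:**
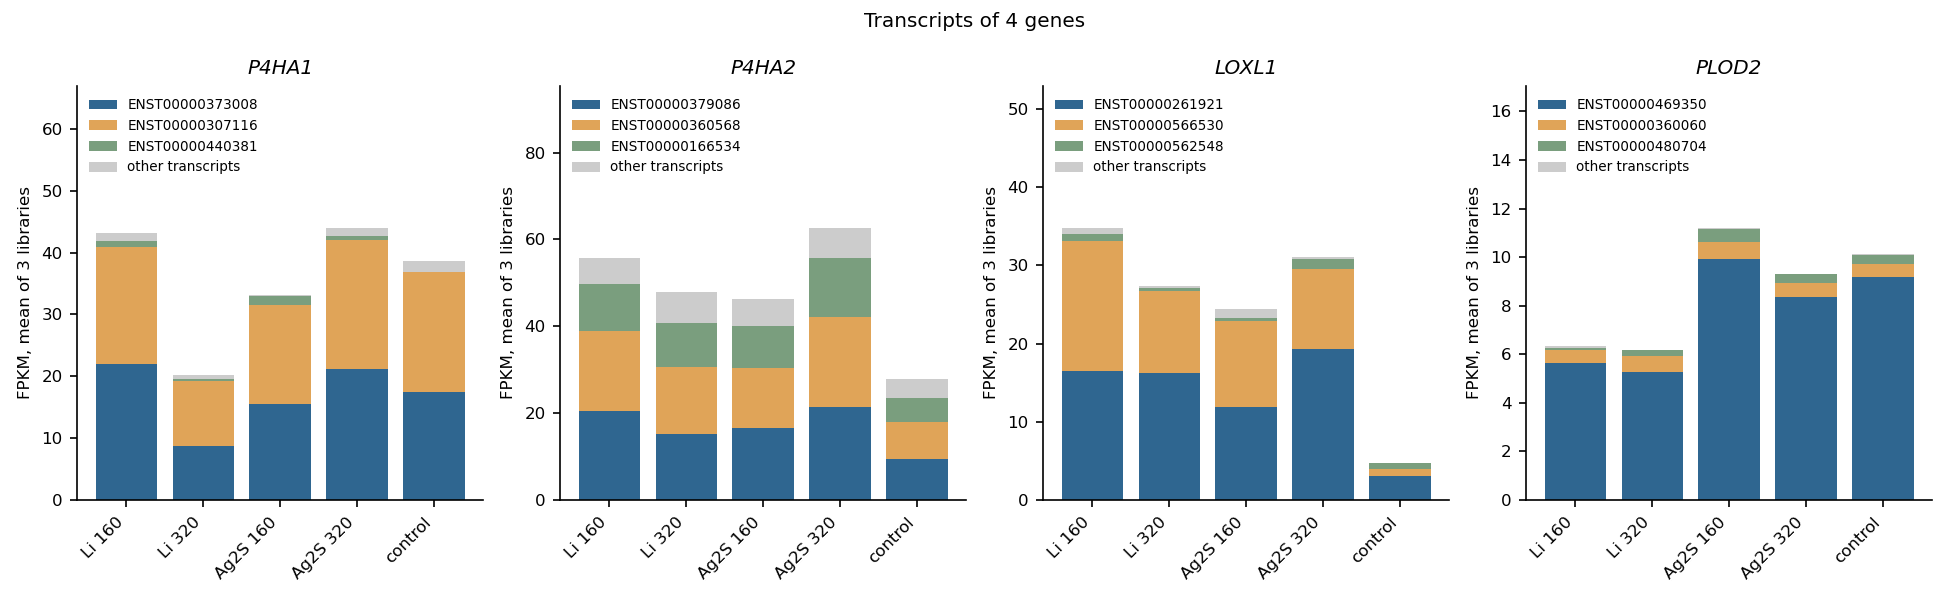
Stacked bars of the mean FPKM of 3 libraries per transcript for P4HA1, P4HA2, LOXL1 and PLOD2 in each group (Li 160 and Li 320, Li-doped Ag2S NPs in μg/mL, then Ag2S NPs and control), with the 3 most abundant transcripts in colour and the rest in grey. Nearly all of PLOD2 sits on ENST00000469350, and LOXL1 is split between ENST00000261921 and ENST00000566530.

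Of 28 other genes that modify, fold, carry or trim procollagen, 19 passed the filter at 160 and 18 at 320 μg/mL. With the lower dose 10 rose and 3 fell with Li-doped Ag2S NPs (median log2 fold change 0.41, where the median of all genes was -0.19, 22.6% of them rose and 40.6% fell), and 4 rose and 2 fell with Ag2S NPs (0.05, where it was -0.14, with 11.5% and 23.8%). With the higher dose 7 rose and 4 fell with Li-doped Ag2S NPs (0.19, where it was -0.26, with 17% and 44.6%), and 7 rose and 3 fell with Ag2S NPs (0.12, where it was -0.18, with 16.2% and 36.2%). After scaling the counts at the lower dose were 12 and 3 with Li-doped Ag2S NPs, where 30.5% of all genes rose and 30.1% fell, and 6 and 1 with Ag2S NPs, where 17.2% and 12.8% did. The scaled counts at the higher dose were 11 and 2 with Li-doped Ag2S NPs, where 28.3% and 26% did, and 10 and 3 with Ag2S NPs, where 24.1% and 21.5% did. P4HB, the partner of the P4HA subunits, had 437, 447 and 500 FPKM with Li-doped Ag2S NPs at 160 μg/mL, against 197, 199 and 204 FPKM in control (1.21, SE 0.08, limma adjusted p = 2.76e-07). In that group P4HA1 differed by 0.16 and missed the threshold, and it passed it after scaling (0.34, adjusted p = 0.00159). PPIB, a prolyl isomerase that helps collagen fold, had 646, 636 and 599 FPKM in that group, against 301, 303 and 303 FPKM in control (1.05, SE 0.07, adjusted p = 3.35e-07). SEC24D, a coat protein of the vesicles that carry procollagen out of the endoplasmic reticulum, rose by 1.39 (SE 0.12, adjusted p = 1.75e-06) there, and COLGALT1, which adds galactose to hydroxylysine, by 0.74 (SE 0.08, adjusted p = 1.93e-05).

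P3H2, a prolyl hydroxylase that modifies another position of proline, rose with Ag2S NPs at both doses, by 0.75 (SE 0.07, limma adjusted p = 3.46e-05) at 160 μg/mL and 1.09 (SE 0.06, adjusted p = 1.38e-07) at 320 μg/mL. Its Li-doped libraries were also all above control. They had 32.25, 32.38 and 32.84 FPKM at 160 μg/mL and 34.49, 34.21 and 34.28 FPKM at 320 μg/mL, against 22.53, 22.24 and 21.08 FPKM in control. MIA2, which helps load procollagen into vesicles, fell with Li-doped Ag2S NPs at 320 μg/mL, with 10.8, 9.94 and 9.21 FPKM, against 23.2, 25.3 and 23.2 FPKM in control (-1.25, SE 0.09, adjusted p = 6.99e-07). It also fell with Ag2S NPs, by limma log2 fold changes of -0.58 (adjusted p = 0.000439) at 160 μg/mL and -0.88 (adjusted p = 1.27e-05) at 320 μg/mL. From 160 to 320 μg/mL of Li-doped Ag2S NPs, 10 of 19 genes were lower and 3 higher, where 23.3% of all genes were lower and 19.6% higher, and after scaling 7 were lower and 3 higher, where 19.7% and 22.8% were. MIA2 was at -1.18, SEC24D at -1.26 and P4HB at -0.65, and BMP1, which trims the procollagen end, at 0.50. Between those doses P4HA1 was at -1.10, while the smaller difference of P4HA2 (-0.22) lost its call after scaling and without either of 2 libraries, as given above. The interaction was negative for 8 and positive for 3 of the 19 genes, where it was negative for 19.5% and positive for 20.2% of all genes, and after scaling it was negative for 6 and positive for 3, where 19.3% and 20.7% were.

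P4HA1, P4HA2, PLOD2 and LOX are known targets of the hypoxia-inducible factor, so 22 other targets of it were read beside them, and 21 passed the filter. With Li-doped Ag2S NPs at 160 μg/mL 12 rose and 2 fell (median 0.93), where 22.6% of all genes rose and 40.6% fell, and with Ag2S NPs 7 rose and 6 fell (-0.01), where 11.5% and 23.8% did. The higher dose had 10 that rose and 5 that fell with Li-doped Ag2S NPs (0.19), beside 17% and 44.6% of all genes, and 11 that rose and 5 that fell with Ag2S NPs (0.21), beside 16.2% and 36.2%. After scaling 16 rose and 1 fell with Li-doped and 7 rose and 5 fell with undoped Ag2S NPs at the lower dose, and 11 rose and 5 fell and 12 rose and 4 fell in that order at the higher, beside the scaled shares of all genes given for the procollagen list. NDRG1 rose by 2.56 (SE 0.06, limma adjusted p = 2.46e-10), BNIP3, which marks mitochondria for removal, by 3.09 (SE 0.15, adjusted p = 3.58e-08), and EGLN3, an oxygen-sensing hydroxylase, by 2.54 (SE 0.19, adjusted p = 7.66e-07) with Li-doped Ag2S NPs at 160 μg/mL. The interaction was called for 12 of the 21, all negative, where it was negative for 19.5% of all genes, and the count after scaling was the same. Of the 4 genes of this report named as targets, P4HA2 rose (1.00) and PLOD2, read mostly from a short model, fell (-0.70) with Li-doped Ag2S NPs at 160 μg/mL. In that group P4HA1 differed by 0.16, which passed the threshold only after scaling (0.34), and LOX by 2.22 in the fit without the filter. No test of the list was made.

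SERPINH1 carries the heat shock element shown above, and 14 heat shock genes were read beside it. For the lower dose 6 rose and 5 fell with Li-doped Ag2S NPs (median 0.06), the group in which SERPINH1 fell, where 22.6% of all genes rose and 40.6% fell, and 3 rose and 2 fell with Ag2S NPs (0.02), where 11.5% and 23.8% did. For the higher dose 4 rose and 7 fell with Li-doped Ag2S NPs (-0.10), where 17% and 44.6% did, and 4 rose and 5 fell with Ag2S NPs (-0.13), where 16.2% and 36.2% did. Scaling changed the balance of directions. The scaled counts were 8 that rose and 1 that fell with Li-doped Ag2S NPs (median 0.24) and 5 and 1 with Ag2S NPs (0.17) at the lower dose, where 30.5% and 30.1%, and 17.2% and 12.8%, of all genes did. At the higher dose they were 7 and 3 with Li-doped Ag2S NPs (0.15) and 5 and 1 with Ag2S NPs (0.05), where 28.3% and 26%, and 24.1% and 21.5%, did. HSPA8, a constitutive cytosolic chaperone, rose by 1.23 (SE 0.07, limma adjusted p = 8.3e-08) with Li-doped Ag2S NPs at 160 μg/mL, while HSPA1B, a heat-inducible one, fell (-0.84, SE 0.07, adjusted p = 3.14e-06). Between Li-doped and undoped Ag2S NPs at that dose, where SERPINH1 was lower, 7 of the 14 were higher and 4 lower, beside 21.4% and 29% of all genes. Of these HSPA8 was higher (1.06, SE 0.07, adjusted p = 5.41e-07) and HSPB1, a small heat shock protein, lower (-1.38, SE 0.11, adjusted p = 2e-06). After scaling, 7 of the 14 were higher and 3 lower in that comparison, where 5992 of 11987 genes were called in either direction.

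For each gene over the filter, the 3 genes nearest to it over the 15 libraries were found by the root mean square difference of centred log2(FPKM + 0.1) among 11952 genes, which is a description only. The nearest to LOXL1 were RCOR2, JUN and GJB2, those to P4HA1 CCPG1, LRRFIP1 and ZNF146, and those to P4HA2 TAGLN2, ACTB and CD44. The nearest to SERPINH1 were TAP1, HDGFL2 and ANKRD9, and to LOXL2 SYT7, CTBS and ANOS1. The smallest difference for P4HA1, to CCPG1, was 0.16 on the log2 scale, where P4HA1 itself varied by 0.42.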

How the data were processed

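RNA of 15 HaCaT libraries was sequenced in 5 groups of 3. The deposited FPKM values, rounded to 2 decimals, were made by the authors with TopHat and Cufflinks 2.1.1, correcting for fragment bias and for reads that map to several places. For the genome build and annotation the entry is "not given in the sources used here", and all 17214 gene IDs shared by both tables matched GENCODE 29. FPKM keep no depth, so the depth and the precision it gives are unknown. The control values are equal in both tables.

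The 10 genes and the other lists were chosen with earlier results of these data known. Genes with a mean of at least 1 FPKM were tested on log2(FPKM + 0.1) with limma 3.58.1 (R 4.3.3), with a mean-variance trend and Benjamini-Hochberg adjustment over all genes, at a threshold of 0.05. Each dose was fitted with its 9 libraries, and dose and interaction with all 15. The fits were tested on simulated data. Fold changes on this scale understate those of low genes. All 10 genes were described, and from each other list up to 4 genes with the smallest p in a comparison were named. Promoters came from RefSeq (GRCh38.p14). Alternatives were pseudocounts of 1 and 0.01, no filter or a mean of 5 FPKM, median-ratio scaling, the 2 groups alone, all 15 libraries, robust and weighted fits, and each library left out. Tables of the authors' own comparisons (group means, fold changes and p-values) were not used.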

Additional observations from a re-analysis of the deposited data

Results flagged for a closer look

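The effect of the higher over the lower dose differed between Li-doped and undoped Ag2S NPs for 5 of the 8 genes tested, by a limma interaction over all 15 libraries. The difference of the dose effects, on the log2 scale, was -1.506 for P4HA1 (adjusted p = 8.07e-08), -0.658 for P4HA2 (adjusted p = 7.49e-05), -0.706 for LOXL1 (adjusted p = 0.014), -0.825 for LOXL2 (adjusted p = 0.000443) and 0.945 for SERPINH1 (adjusted p = 3.18e-06). For P4HA1 the dose effects themselves had opposite signs, -1.10 with Li-doped and 0.41 with undoped Ag2S NPs. With SERPINH1 they were 0.66 and -0.28, with LOXL2 -0.40 and 0.43, and with P4HA2 -0.22 and 0.44. With LOXL1 they were -0.35 and 0.355, and neither was called. By limma after scaling, the calls ended for SERPINH1 with undoped (adjusted p = 0.0955) and P4HA2 with Li-doped Ag2S NPs (adjusted p = 0.159). Over all genes the interaction was positive in 20.2% and negative in 19.5%.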

How the results depend on the processing

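No paired analysis was possible because the 15 libraries carry separate numbers and no group shares a number with another. The interaction calls for P4HA1, P4HA2, LOXL1, LOXL2 and SERPINH1 held without each library in turn. With median-ratio scaling, signs turned for PLOD2 (0.015) and SERPINH1 (0.025) with Ag2S NPs at 320 μg/mL against control, SERPINH1 with Li-doped Ag2S NPs at 320 μg/mL against control (0.237), PLOD1 between Li-doped and undoped Ag2S NPs at 160 μg/mL (0.025), PLOD3 between doses of Ag2S NPs (0.04) and PLOD2 between doses of Li-doped Ag2S NPs (0.033). With array weights they turned for PLOD3 between Li-doped and undoped Ag2S NPs at 160 μg/mL (-0.04) and, between doses of Li-doped Ag2S NPs, for PLOD2 (0.179) and PLOD3 (-0.043). A pseudocount of 1 turned 2 minor transcripts with Ag2S NPs at 320 μg/mL, ENST00000454310 of PLOD3 (-0.041) and ENST00000526638 of SERPINH1 (0.022). Array weights also called 7 of the 8 genes with Ag2S NPs at 320 μg/mL against control, and 2359 of all genes between doses of Ag2S NPs, where the fit without weights called 4 and 1497. The cause was not tested.

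Leaving out each library gave 4 to 7 of the 8 genes with Ag2S NPs at 320 μg/mL against control, and 2 to 4 between doses of Ag2S NPs, where 2 were left without Ag2S 160 replicate 5 or Ag2S 320 replicate 7. Over all genes it gave 1720 to 3568 calls for Li-doped against undoped Ag2S NPs at 320 μg/mL (3124 with all libraries), with 1720 and 1945 without Ag2S 320 replicates 7 and 8. Between doses of Ag2S NPs it gave 926 to 1912, with 934, 926 and 960 without Ag2S 320 replicates 7, 8 and 9. Signs turned for uncalled differences only. PLOD2 ran from -0.344 to 0.097 with Ag2S NPs at 320 μg/mL against control, from -0.258 to 0.191 between doses of Li-doped Ag2S NPs and from -0.002 to 0.487 in the interaction. PLOD3 ran from -0.044 to 0.152 and from -0.004 to 0.141 for Li-doped against undoped Ag2S NPs at 160 and 320 μg/mL, from -0.086 to 0.058 and from -0.126 to 0.069 between doses of Li-doped and undoped Ag2S NPs, and from -0.083 to 0.135 in the interaction. For Li-doped against undoped Ag2S NPs at 160 μg/mL, PLOD1 ran from -0.054 to 0.021 and LOXL2 from -0.033 to 0.167. Depth is unknown, so LOX and P4HA3 have no counting interval.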
